A study of Mus musculus with 2 samples.

Results

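Pleiotrophin (Ptn) and midkine (Mdk) are the 2 members of a small family of secreted heparin-binding cytokines. Their levels, and those of 5 surface proteins that bind them, the syndecans Sdc1, Sdc2, Sdc3 and Sdc4 and the receptor phosphatase Ptprz1, were examined in single cells from fetal mouse bone marrow. These 7 genes were chosen by name out of 22652 genes measured, and all 7 had unique molecular identifiers (UMIs, each counting 1 captured transcript) in both libraries. The study asked how stromal and vascular cells of the fetal femur interact with haematopoietic stem and progenitor cells (HSPCs). Its data used here are 2 single-cell RNA-seq libraries, 1 per condition, of femoral bone marrow at E18.5, late in gestation, in the C57BL/6 strain. Both were depleted of cells carrying Ter119, Gr-1, B220 or CD3e, and both were processed on the BD Rhapsody platform with whole transcriptome amplification. The first library is wild type (WT). The second, named Bmx-CreER Wls in the labels and called the mutant library here, comes from embryos in which a tamoxifen-inducible Cre under the Bmx promoter, active in arterial endothelial cells, was used to delete Wls, which is needed for Wnt secretion. The number of embryos pooled per library and the treatment and litter of the WT embryos are not given in the sources used here.

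Pleiotrophin and midkine act outside the cell, where they bind the heparan sulfate and chondroitin sulfate chains of proteoglycans and, through them, a set of receptors. Syndecans are transmembrane core proteins that carry such heparan sulfate chains, and Ptprz1 is a receptor-type tyrosine phosphatase that carries chondroitin sulfate and loses activity when pleiotrophin binds. In bone marrow, pleiotrophin is known as a niche factor for haematopoietic stem cells, and both cytokines are known in developing cartilage and bone.

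The WT library held 5736 cells after filtering (22266017 UMIs, median 3128 per cell) and the mutant library 6620 cells (24385649 UMIs, median 3067). The libraries shared 49 cell barcodes, 48 of them in the cells kept. With 1 library per condition there is no replicate and no test, so differences between conditions cannot be told apart from differences between libraries. Levels are given as CPM (a gene's UMIs divided by the summed UMIs of a cell class, times 1000000) with exact Poisson 95% intervals that cover counting error only. Cells were clustered without the 7 genes and named X-like from marker lists. The 9 stromal markers summed to 26521 CPM in WT and 20123 CPM in mutant stromal-like cells, and the 10 endothelial markers to 10980 and 11262 CPM in endothelial-like cells. All markers of these lists were detected in both libraries. Erythroid-like cells lacked 2 of their 9 markers in each library, and WT granulocyte-monocyte-like cells 3 of 10. The targeted gene Wls was at 35.8 CPM (9 UMIs) in WT and 6.82 CPM (2 UMIs) in mutant arterial endothelial-like cells, a ratio of 0.190 (interval 0.0200 to 0.919), and over all kept cells the ratio was 0.832. The 3′ tags of this assay may lie outside the deleted part of the gene, in which case they check nothing.

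Ptn was a transcript of stromal-like and tenocyte-like cells. Stromal-like cells, fibroblast-type marrow cells marked by Col3a1 and related genes, had 1275 CPM of Ptn in WT (interval 1238 to 1314, 4401 UMIs in 1040 cells) and 1381 CPM in the mutant library (1333 to 1430, 3104 UMIs in 669 cells). Tenocyte-like cells, of the tendon type, had 1224 CPM in WT and 1180 CPM in mutant. In WT these top classes overlapped in their intervals, whereas in the mutant library the stromal-like level stood above the tenocyte-like one. The next named class was far smaller in cells, the glia-type Schwann-like cells, with 747 CPM in 23 WT cells (46 UMIs) and 757 CPM in 16 mutant cells (46 UMIs). Of the WT stromal-like cells, 84.5% had at least 1 Ptn UMI, and in the mutant library 82.2%. After thinning every cell to 1000 UMIs these shares were 62.5% of 1017 cells and 63.4% of 662 cells. By comparison, 2.07% of 145 WT HSPC-like cells had a Ptn UMI, although their median depth, 5750 UMIs per cell, exceeded the 3134.5 of stromal-like cells.

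**Figure D1:**
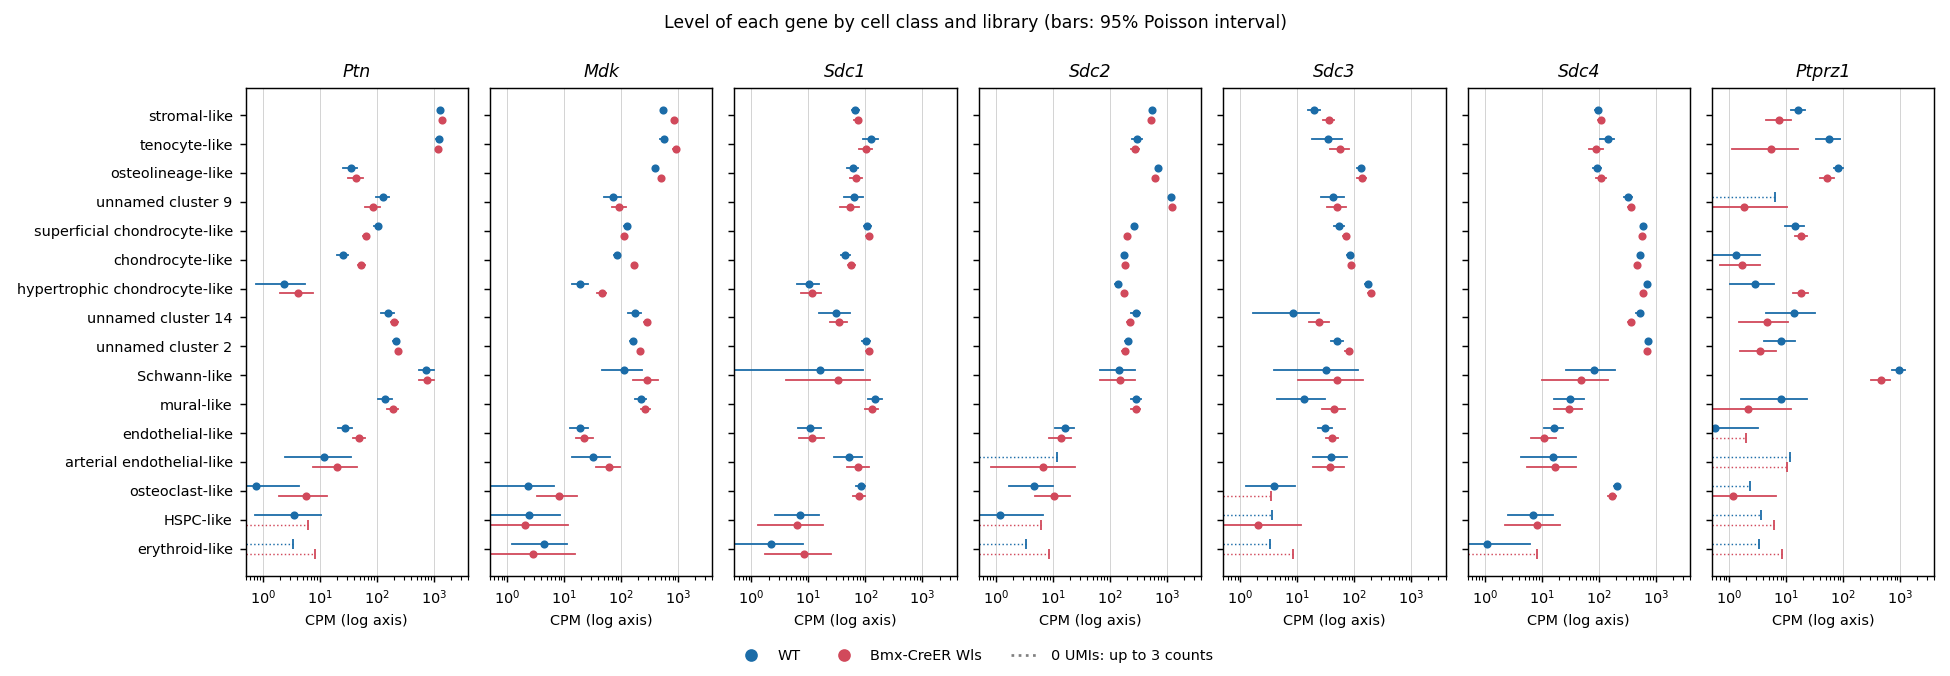
Level of each of the 7 genes (CPM, log axis) in 16 cell classes of the WT (blue) and mutant (red) libraries, with exact Poisson 95% intervals of counting error; a dotted line marks a class with 0 UMIs and runs up to the level of 3 counts. Ptn peaked in stromal-like and tenocyte-like cells at 1180 to 1381 CPM, while Sdc4 peaked in the cartilage classes and Ptprz1 in Schwann-like cells.

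The fall from the stroma to the other mesenchymal classes was steep for Ptn. Osteolineage-like cells, of the bone-forming line, had 35.0 CPM in WT (53 UMIs) and 43.0 CPM in mutant (42 UMIs). That WT level depended on the cell names, since the 304 cells that the study itself listed as OLCs, its osteolineage cells, had 107 CPM (90.3 to 126, 143 UMIs), and the ratio of 1.23 became 2.90 with each library clustered on its own. Chondrocyte-like cells had 25.2 CPM in WT (19.8 to 31.6) and 53.9 CPM in mutant (47.0 to 61.5), and hypertrophic chondrocyte-like cells, the most mature cartilage class, 2.39 CPM (5 UMIs) and 4.20 CPM (10 UMIs). Superficial chondrocyte-like cells, of the joint surface type, stood between with 104 CPM in WT (89.6 to 119) and 65.9 CPM in mutant (58.2 to 74.3). The WT order over the classes formed here was thus stroma and tendon, joint surface, bone line and cartilage, hypertrophic cartilage. The intervals of osteolineage-like and chondrocyte-like cells overlapped, and the level of the listed OLCs would place the bone line beside the joint surface. The stromal-like class made up 18.1% of kept WT cells and held 75.4% of the Ptn UMIs of that library; in the mutant library it made up 10.1% of the cells and held 56.5%.

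Within the stroma, Ptn differed between subclusters more than between libraries. The highest level was in subcluster 7.8, led by Epha3 and Col8a1, with 2409 CPM in WT and 2425 CPM in mutant. Subcluster 7.5, led by Slc26a7 and the proteoglycan gene Vcan, followed with 2364 and 2143 CPM. At the low end, subcluster 7.3, also led by Slc26a7 but with Col5a3, had 447 and 545 CPM. Ptn therefore varied by over 5-fold among cells that all carried the stromal name. In the largest WT subcluster, 7.6 (Aspn and Clec3b, 284 WT cells), Ptn was at 1315 CPM in WT and 1297 CPM in mutant. Subcluster 7.7, led by Mfap5 and Pi16, went from 831 to 408 CPM, and subcluster 7.2, led by Dpt and Clec3b, from 696 to 1135 CPM. Of the 9 stromal subclusters with at least 20 cells in each library, Ptn was higher in the mutant library in 6 and lower in the rest, at ratios of 0.490 to 1.63. Giving each of them equal weight, the level was 1439 CPM in WT and 1512 CPM in mutant, a ratio of 1.05, close to the ratio of the whole class, 1.08 (1.03 to 1.13).

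Vessel wall cells held little Ptn, and it was unevenly placed among them. Endothelial-like cells had 28.4 CPM in WT (21 to 37.4, 50 UMIs) and 48.9 CPM in mutant (38.5 to 61.3, 75 UMIs), a ratio of 1.72 (1.19 to 2.52). Most of these UMIs were in 2 subclusters. In the Stab1 subcluster, also led by Fam167b and the lymphatic and sinusoidal gene Flt4, Ptn was at 42.1 CPM in WT (23 UMIs in 14 cells) and 98.8 CPM in mutant (41 UMIs, 10 of them in 1 cell). The Cd36 subcluster, also led by the capillary genes Gpihbp1 and Apln, had 137 and 211 CPM, but its chondrocyte markers summed to 29357 CPM. The other endothelial subclusters held 0 to 2 Ptn UMIs each in either library. In the Stab1 subcluster, by comparison, 7 of the 9 stromal markers were detected and summed to 41.6 CPM, against 12520 CPM for the 10 endothelial markers. The HSPC list summed to 1284 CPM there, with 1684 CPM in all WT endothelial-like cells, and the mural list to 875 CPM; their part in the Ptn level was not tested. Leaving out the Cd36 subcluster, the endothelial-like level was 15.3 CPM in WT and 33.0 CPM in mutant, a ratio of 2.16 (1.29 to 3.70). Removing the top 5% of cells by doublet score lowered the ratio to 1.33, under the 1.5-fold used as a limit here. Arterial endothelial-like cells, in which Bmx itself was at 115 CPM in WT and 222 CPM in mutant, had 3 Ptn UMIs in WT (11.9 CPM) and 6 in mutant (20.5 CPM). Over the 435 WT cells that the study itself listed as endothelial, Ptn was at 12.9 CPM (7.65 to 20.4, 18 UMIs). Of these UMIs, 14 were in cells listed as capillary-1 (18.9 CPM) and 4 in cells listed as arterial, while the 47 cells listed as sinusoidal had 0. Which of the listed types the Stab1 subcluster held was not examined.

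Mural-like cells, the pericytes and smooth muscle around vessels, had 141 CPM of Ptn in WT (53 UMIs) and 190 CPM in mutant (87 UMIs). Most of the mutant UMIs (73) came from the Cygb subcluster, also led by Abca8a, Cxcl1 and Il6, in which 11 WT cells had 744 CPM and 9 mutant cells 1422 CPM, and in which the 9 stromal markers summed to 18359 CPM. Without that subcluster the mural-like level was 79.3 CPM in WT (27 UMIs) and 34.4 CPM in mutant (14 UMIs), so that the ratio turned from 1.35 (0.946 to 1.93) to 0.434 (0.211 to 0.858). In WT, 20 of the remaining UMIs were in 4 cells of a single other subcluster.

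**Figure D2:**
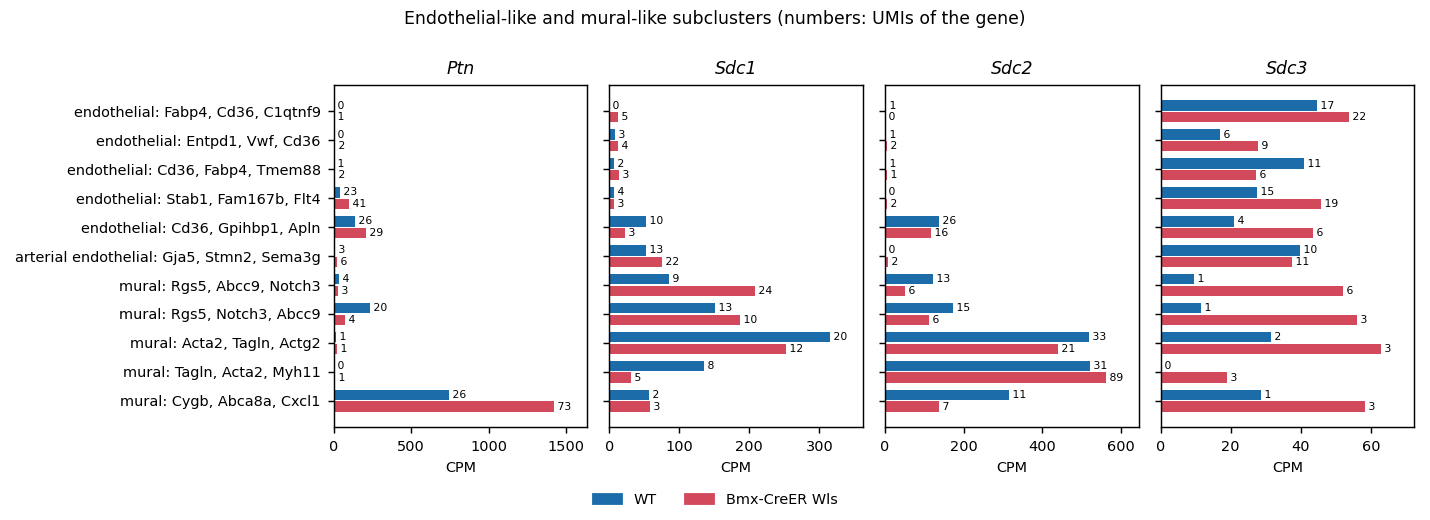
Level (CPM) of Ptn, Sdc1, Sdc2 and Sdc3 in 5 endothelial, 1 arterial and 5 mural subclusters, WT bars in blue and mutant bars in red; the printed numbers are UMIs. Ptn was concentrated in the subclusters led by Stab1, Cd36 and Cygb, and Sdc1 and Sdc2 in the mural subclusters.

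Blood cells were nearly free of Ptn. WT HSPC-like cells had 3 UMIs, 1 in each of 3 cells, a level of 3.57 CPM (0.735 to 10.4), and mutant HSPC-like cells had 0 UMIs, which allows up to 6.20 CPM. The WT HSPC-like to stromal-like ratio was 0.00280 (0.000576 to 0.00818), and in the mutant library it was at most 0.00449. Erythroid-like cells had 0 UMIs in both libraries. In osteoclast-like cells, the bone-resorbing cells of the blood line, there was 1 UMI in WT, and 5 in mutant that were all in 1 cell. Over all blood classes without subcluster 5.6, whose 40 cells had a median of 8423.5 UMIs and chondrocyte markers at 24580 CPM, Ptn was at 1.61 CPM in WT (8 UMIs) and 3.49 CPM in mutant (11 UMIs). Those blood cells held 47.6 Ptn UMIs per 1000 UMIs of the stromal collagen Col3a1 in WT (20.2 to 96.0), where stromal-like cells held 68.3, and 94.0 in mutant (45.7 to 175), where stromal-like cells held 95.8. Set against Col1a1, the WT blood cells held 17.7 Ptn UMIs per 1000 (7.61 to 35.3) and stromal-like cells 35.5, and against Igf2 11.7 (5.04 to 23.2) and 72.3. The WT interval thus overlapped the stromal one for Col3a1 and for Col1a1 (stromal 34.5 to 36.6) and lay below it for Igf2. In the mutant library the blood cells held 48.7 Ptn UMIs per 1000 of Col1a1 (24.0 to 88.8) and stromal-like cells 53.0. Against Igf2 the mutant values were 35.0 (17.3 to 63.5) and 64.2 (61.9 to 66.6), so both mutant intervals overlapped. Igf2 was not confined to the stroma, with 16913 CPM in WT chondrocyte-like and 17644 CPM in WT stromal-like cells. The source of these UMIs was not tested.

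Mdk was spread more widely over the mesenchyme than Ptn. Tenocyte-like cells had 561 CPM of Mdk in WT (192 UMIs) and 908 CPM in mutant (502 UMIs). Stromal-like cells had 537 CPM in WT (513 to 562, 1852 UMIs) and 861 CPM in mutant (823 to 900, 1935 UMIs). Osteolineage-like cells followed with 398 CPM in WT (367 to 431) and 509 CPM in mutant (465 to 555), levels within 2-fold of the stroma, unlike those of Ptn. Mural-like cells had 224 and 264 CPM, a ratio of 1.18 that turned to 0.704 (0.488 to 1.01) without the Cygb subcluster, at 203 CPM in WT (69 UMIs) and 143 CPM in mutant (58 UMIs). In the 45 cells listed by the study as mural, Mdk was at 117 CPM (67.9 to 187, 17 UMIs). Superficial chondrocyte-like cells had 128 and 113 CPM. Chondrocyte-like cells had 84.0 CPM in WT and 168 CPM in mutant, and hypertrophic chondrocyte-like cells 19.2 CPM (40 UMIs) and 45.8 CPM (109 UMIs). Endothelial-like cells were at the low end with 18.7 CPM (33 UMIs) and 22.8 CPM (35 UMIs), and HSPC-like cells had 2 UMIs in WT and 1 in mutant. Stromal-like cells held 49.7% of the Mdk UMIs in WT and 35.9% in mutant, and osteolineage-like cells 16.2% and 9.22%.

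Unlike Ptn, Mdk was higher in the mutant library in all stromal subclusters compared, though by little in some. The class ratio was 1.6 (1.5 to 1.71), and Mdk was higher in 9 of the 9 stromal subclusters with at least 20 cells in each library, at ratios of 1.13 to 2.26. Those subclusters come from the same pair of libraries and are not replicates. The share of stromal-like cells with an Mdk UMI after thinning was 38.8% in WT and 55.9% in mutant, against 69.6% and 80.9% unthinned. In subcluster 7.5 Mdk went from 863 to 1420 CPM, in subcluster 7.8 from 803 to 1212 CPM and in subcluster 7.2 from 369 to 832 CPM. Subclusters 7.7 (249 and 283 CPM) and 7.3 (398 and 448 CPM) were nearly alike in both libraries. Tenocyte-like cells had a ratio of 1.62 (1.37 to 1.92), in part through subcluster 7.10, with 38 mutant cells at 1277 CPM and 1 WT cell. In the remaining tenocyte-like subclusters Mdk went from 526 to 786 CPM (7.1) and from 605 to 848 CPM (0.3). In osteolineage-like cells the ratio was 1.28 (1.13 to 1.44), below 1.5-fold, and Mdk was higher in 4 of 4 subclusters. The chondrocyte-like ratio was 2.0 (1.73 to 2.32), and Mdk was higher in 8 of the 8 subclusters with at least 50 UMIs. Markers of cartilage moved with the stromal difference, since the chondrocyte list summed to 2602 CPM in WT and 4660 CPM in mutant stromal-like cells; their part in the result was not tested. Of all genes that reached 50 UMIs in the libraries together, 7.11% were past 1.5-fold higher in mutant stromal-like cells and 5.74% in mutant chondrocyte-like cells.

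In superficial chondrocyte-like cells the ratio of Mdk was 0.884 (0.754 to 1.04), so a higher level like that of chondrocyte-like cells was not detected in the joint surface type. Over the alternative settings this ratio ran from 0.501 to 1.08, and it was past 1.5-fold lower with each library clustered on its own and, at 0.659, with the members among the clustering genes. Hypertrophic chondrocyte-like cells had a ratio of 2.39 (1.65 to 3.53), but it turned to 0.955 when each library was clustered on its own. This class also differed in makeup, since subcluster 4.6, led by Scube1, Panx3 and Prkg2, held 27 of 313 WT cells and 141 of 347 mutant cells.

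The balance of both cytokines separated the classes. Stromal-like cells held 0.421 Mdk UMIs per Ptn UMI in WT (0.398 to 0.444) and 0.623 in mutant (0.589 to 0.660), and tenocyte-like cells 0.458 and 0.770. Chondrocyte-like cells held 3.33 in WT (2.57 to 4.37) and 3.11 in mutant. Osteolineage-like cells were at 11.4 in WT (8.58 to 15.4) and 11.8 in mutant (8.63 to 16.6), and hypertrophic chondrocyte-like cells at 8.0 and 10.9. The proportion was thus higher in the bone line than in the stroma in both libraries. The size of that gap depended on the cell names: over the study's own lists, the OLCs held 592 Mdk and 143 Ptn UMIs, and the cells listed as eBMSC-1, embryo-enriched stromal cells, 1544 and 3578. Single cells were also counted after thinning. Both transcripts were found in 26.1% of WT and 39.0% of mutant stromal-like cells, whereas in osteolineage-like cells 32.2% and 39.5% had Mdk alone and 2.21% and 1.74% had both.

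**Figure D3:**
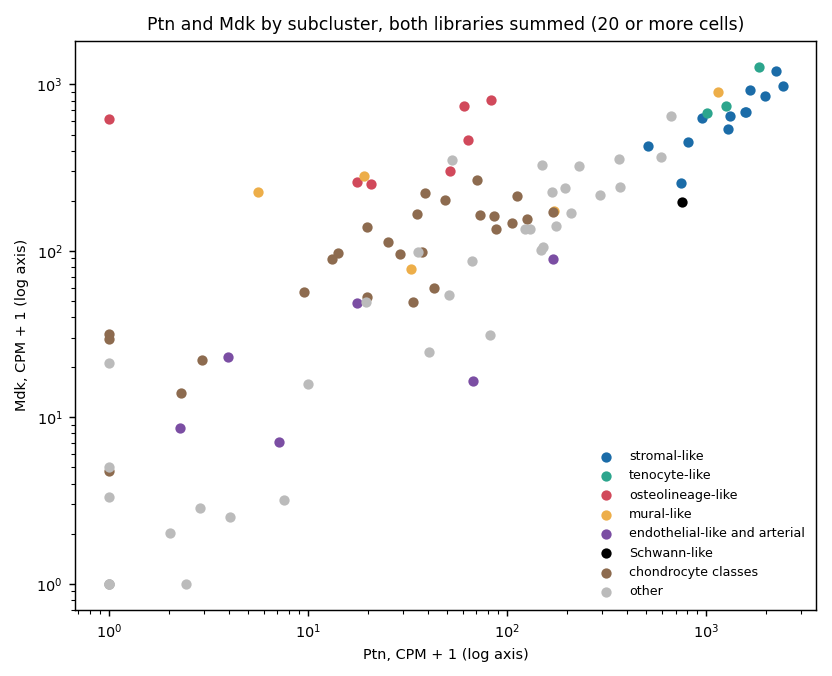
Ptn against Mdk (CPM + 1, log axes) in every subcluster with at least 20 cells, both libraries summed, coloured by class. Blood, skeletal muscle-like and unnamed subclusters are all grey and cannot be told apart. Stromal and tenocyte subclusters lay at the upper right, and osteolineage subclusters at high Mdk and low Ptn.

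Sdc1, a syndecan best known from epithelia and plasma cells, had its highest named level in mural-like cells, with 149 CPM in WT (113 to 194, 56 UMIs) and 129 CPM in mutant (59 UMIs). Tenocyte-like cells (126 and 101 CPM) and superficial chondrocyte-like cells (107 and 114 CPM) had overlapping intervals with it. Osteoclast-like cells had 82.4 CPM in WT (67.5 to 99.5) and 78.5 CPM in mutant, while HSPC-like cells had 7.13 CPM (6 UMIs) and 6.20 CPM (3 UMIs). Osteoclast-like cells thus stood 11.5-fold above HSPC-like cells in WT (5.14 to 32.2), in a comparison in which 22.8% of genes were past 1.5-fold higher. Among the osteoclast subclusters, 12.0, led by the resorption genes Ctsk and Acp5, had 153 CPM in WT and 144 CPM in mutant, and WT subclusters 12.1 to 12.3 had 38.3 to 58.6 CPM. Within the vessel wall, Sdc1 was low in endothelial-like cells, at 10.8 CPM in WT (19 UMIs) and 11.7 CPM in mutant (18 UMIs). Arterial endothelial-like cells had 51.8 CPM in WT (27.6 to 88.5, 13 UMIs) and 75.0 CPM in mutant (47.0 to 114, 22 UMIs). The arterial level was 4.80-fold the endothelial one in WT (2.18 to 10.3) and 6.39-fold in mutant (3.27 to 12.6), where 11.9% and 11.4% of genes were past 1.5-fold higher. Mural-like cells stood 13.8-fold above endothelial-like cells in WT and 11-fold in mutant (background 15.7% and 16.3%). In the mural subclusters Sdc1 was highest in the Actg2 subcluster, also led by the smooth muscle genes Acta2 and Tagln, at 315 and 252 CPM.

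Sdc2, the syndecan of mesenchymal cells, was highest in a cluster that no marker list named, cluster 9, led by Hbegf, Clic5 and Col22a1, with 1166 CPM in WT (1071 to 1267) and 1212 CPM in mutant. Osteolineage-like cells had 696 CPM in WT (655 to 740) and 618 CPM in mutant, a ratio of 0.888 (0.802 to 0.982). Stromal-like cells had 538 and 532 CPM, a ratio of 0.990 (0.919 to 1.07). These values set an order of cluster 9, bone line and stroma with intervals that did not overlap in either library. Unnamed cluster 0, with 33 WT and 29 mutant cells, was at 1027 and 887 CPM. Mural-like cells (288 and 284 CPM) and superficial chondrocyte-like cells (267 and 198 CPM) came lower, and chondrocyte-like cells had 177 and 185 CPM. Endothelial-like cells had 16.5 CPM (29 UMIs) and 13.7 CPM (21 UMIs), or 1.91 CPM (3 UMIs) and 3.58 CPM (5 UMIs) without the Cd36 subcluster. Arterial endothelial-like cells had 0 UMIs in WT, which allows up to 11.9 CPM, and 2 in mutant. In the wall of the vessel Sdc2 was therefore a mural transcript, 17.5-fold above the endothelial-like level in WT (11.5 to 27.3). It was at 522 and 562 CPM in the Myh11 subcluster and 520 and 441 CPM in the Actg2 subcluster, both led by smooth muscle genes, against 123 and 52.1 CPM in the subcluster led by the pericyte genes Rgs5 and Abcc9. In the stromal subclusters Sdc2 and Ptn followed no single order. Subcluster 7.3, with the lowest WT Ptn of those named above, had 1273 and 1174 CPM of Sdc2, and subcluster 7.7, with the lowest mutant Ptn, 675 and 953 CPM. Subcluster 7.8, with the highest Ptn, had 439 and 215 CPM, while subcluster 7.4, led by Crabp1 and Igf1, had the lowest WT Sdc2 of these, 183 CPM, and 227 CPM in mutant. In superficial chondrocyte-like cells Sdc2 was lower in the mutant library in 7 of 7 subclusters, with a class ratio of 0.742 (0.663 to 0.831), inside 1.5-fold.

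Sdc3 and Ptprz1 are the members best known as pleiotrophin receptors, both from the nervous system. Here both were higher in osteolineage-like than in stromal-like cells, and their promoters are shown for that reason. The sequences are from RefSeq on GRCm38.p6, 5′ to 3′ on the coding strand, and end at the base before the transcription start given there; capitals mark the GC box GGGCGG on either strand. The first is chr4:130792287-130792536 (+) and the second chr6:22875252-22875501 (+).
Sdc3: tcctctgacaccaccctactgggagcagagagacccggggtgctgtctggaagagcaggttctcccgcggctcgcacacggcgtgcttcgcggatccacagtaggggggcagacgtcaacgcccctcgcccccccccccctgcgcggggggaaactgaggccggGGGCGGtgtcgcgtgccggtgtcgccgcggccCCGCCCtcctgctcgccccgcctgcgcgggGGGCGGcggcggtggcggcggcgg
Ptprz1: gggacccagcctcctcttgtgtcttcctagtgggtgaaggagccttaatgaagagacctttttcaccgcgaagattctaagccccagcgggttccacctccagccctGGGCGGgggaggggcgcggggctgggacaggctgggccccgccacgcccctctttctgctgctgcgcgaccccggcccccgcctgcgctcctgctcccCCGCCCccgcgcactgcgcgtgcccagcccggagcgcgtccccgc
The Sdc3 window held 3 GC boxes, 86, 54 and 24 bases before the start, and 32 CG dinucleotides, a number exceeded by 4.03% of the 32851 mouse promoters in the table. The Ptprz1 window held 2, at 143 and 45 bases, and 22 CG dinucleotides, exceeded by 13.3%. A GC box was present in 32.7% of all promoters of this length, and the median promoter had 6 CG dinucleotides. Neither window matched the SOX core ACAAAG (16.5% of promoters), the RUNX core TGTGGT (14%), the TATA box TATAAA (12.4%) or the E-box CACGTG (6.02%), each searched on both strands. These are matches of letters and not binding sites. The Ptn window matched none of these motifs and had 5 CG dinucleotides. Promoter sequence was matched for 5 of the 7 genes, all but Mdk and Sdc2.

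The Sdc3 level was highest in late cartilage and bone. Hypertrophic chondrocyte-like cells had 173 CPM in WT (156 to 192) and 195 CPM in mutant, osteolineage-like cells 131 and 134 CPM, and chondrocyte-like cells 83.3 and 88.9 CPM. In the 13 WT macrophage-like cells the level was 198 CPM, but with 11 UMIs its interval ran from 98.8 to 354, and the 14 mutant cells had 1 UMI. Stromal-like cells were low with 19.7 CPM in WT (15.3 to 25, 68 UMIs) and 36 CPM in mutant (28.6 to 44.8, 81 UMIs). The stroma that was richest in Ptn thus had little Sdc3, and osteolineage-like cells had 6.63-fold more in WT (5.01 to 8.86) and 3.72-fold more in mutant, where 15.5% and 14.3% of genes were past 1.5-fold higher. Endothelial-like cells had 31.2 CPM in WT (55 UMIs) and 41.1 CPM in mutant (63 UMIs). These endothelial UMIs were in several subclusters, from 16.8 CPM (6 UMIs) to 44.7 CPM (17 UMIs) in WT, with arterial endothelial-like cells at 39.8 CPM (10 UMIs). Between libraries, Sdc3 was higher in mutant stromal-like cells by 1.83-fold (1.31 to 2.56) and in superficial chondrocyte-like cells by 1.35-fold (1.07 to 1.70).

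Sdc4, a widely expressed syndecan of cell adhesions, was high across the cartilage classes, which also held 60.2% of WT and 64.4% of mutant Sdc3 UMIs. Hypertrophic chondrocyte-like cells had 714 CPM in WT (678 to 751) and 592 CPM in mutant, superficial chondrocyte-like cells 608 and 572 CPM, and chondrocyte-like cells 534 and 468 CPM. Cluster 2, cycling cells with cartilage genes, had 719 and 715 CPM. The chondrocyte classes held 65.2% of all Sdc4 UMIs in WT and 64.2% in mutant, with 36.4% and 50.6% of the cells. Stromal-like cells had 95.9 and 112 CPM, which left chondrocyte-like cells 5.57-fold higher in WT and 4.19-fold in mutant (14.1% and 12.4% of genes were past 1.5-fold higher). Outside the mesenchyme, osteoclast-like cells had 213 CPM in WT (277 UMIs) and 172 CPM in mutant (147 UMIs), 29.9-fold (13.6 to 82.2) and 20.8-fold above HSPC-like cells (background 22.8% and 24.3%). Endothelial-like cells had 16.5 and 11.1 CPM, or 1.91 CPM (3 UMIs) and 5.73 CPM (8 UMIs) without the Cd36 subcluster. The hypertrophic ratio was 0.829 (0.770 to 0.892) and the chondrocyte-like ratio 0.876 (0.820 to 0.937), both past counting error and inside 1.5-fold. In tenocyte-like cells Sdc4 went from 143 CPM (49 UMIs) to 90.5 CPM (50 UMIs), a ratio of 0.632 (0.418 to 0.957).

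Ptprz1 had 320 UMIs in the WT library. Its highest level was in Schwann-like cells, at 942 CPM in WT (716 to 1218, 58 UMIs in 23 cells) and 461 CPM in mutant (306 to 666, 28 UMIs in 16 cells). This was 58.1-fold the stromal-like level in WT (39.5 to 85.4) and 61.0-fold in mutant, in comparisons with 30.6% and 27.2% of genes past 1.5-fold higher. Osteolineage-like cells had 82.4 CPM in WT (68.6 to 98.2, 125 UMIs) and 53.2 CPM in mutant (39.8 to 69.8, 52 UMIs). They held 39.1% of all Ptprz1 UMIs in WT and 21.2% in mutant. The chondrocyte classes held 11.6% in WT and 51.0% in mutant, with 36.4% and 50.6% of the cells. Stromal-like cells had 16.2 CPM (56 UMIs) and 7.56 CPM (17 UMIs). Bone-line cells therefore exceeded the stromal-like class as a whole by 5.08-fold in WT (3.68 to 7.09) and 7.04-fold in mutant. WT tenocyte-like cells had 55.5 CPM (33.4 to 86.7), an interval that overlapped the osteolineage one. In the mutant library tenocyte-like cells had 5.43 CPM (1.12 to 15.9). Over the 9 stromal subclusters with at least 20 cells in each library, the WT level ran from 0 to 86.6 CPM. Among WT osteolineage subclusters Ptprz1 was at 185 CPM in 13.7, led by the bone matrix genes Ibsp and Ifitm5, and at 115 CPM in 13.0, led by Cxcl12 and Pi15. It was at 0 UMIs in 13.5, led by Spp1 and Mmp13, where Sdc2 reached 1256 CPM. A single WT cell of subcluster 13.7 held 31 UMIs, and without the top cell of each library the WT level was 62.4 CPM and the ratio 0.796 in place of 0.646 (0.458 to 0.899). Endothelial-like cells had 1 UMI in WT and 0 in mutant, and the blood classes 0 and 2. In hypertrophic chondrocyte-like cells Ptprz1 went from 2.87 CPM (6 UMIs) to 18.1 CPM (43 UMIs). Of these 43 UMIs, 36 were in subcluster 4.6, which was larger in the mutant library and in which the level was 32.2 CPM in WT and 41.5 CPM in mutant.

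The other bone-line members varied along the same subclusters in their own ways. In WT, Mdk was highest in subclusters 13.6 (Cp, Mmp13 and Cxcl12, 797 CPM) and 13.0 (685 CPM) and lowest in 13.7 (215 CPM) and 13.1 (192 CPM), the Ibsp and Car3 subclusters. Sdc2 was at 1256 CPM in 13.5 and 1071 CPM in 13.6 and at 327 and 314 CPM in 13.1 and 13.7. Sdc3 followed with 207 CPM in 13.6 and 81.0 and 78.6 CPM in 13.1 and 13.7. Among WT subclusters of at least 20 cells, Mdk, Sdc2 and Sdc3 were all lowest in the Ibsp and Car3 subclusters, while Ptprz1 in 13.7 was not. That Ptprz1 level rested in part on the single WT cell described above. In the 1 osteolineage subcluster with at least 50 Ptprz1 UMIs over both libraries, the mutant level was 0.201 of WT, so the WT pattern is not shown for the mutant library.

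**Figure D4:**
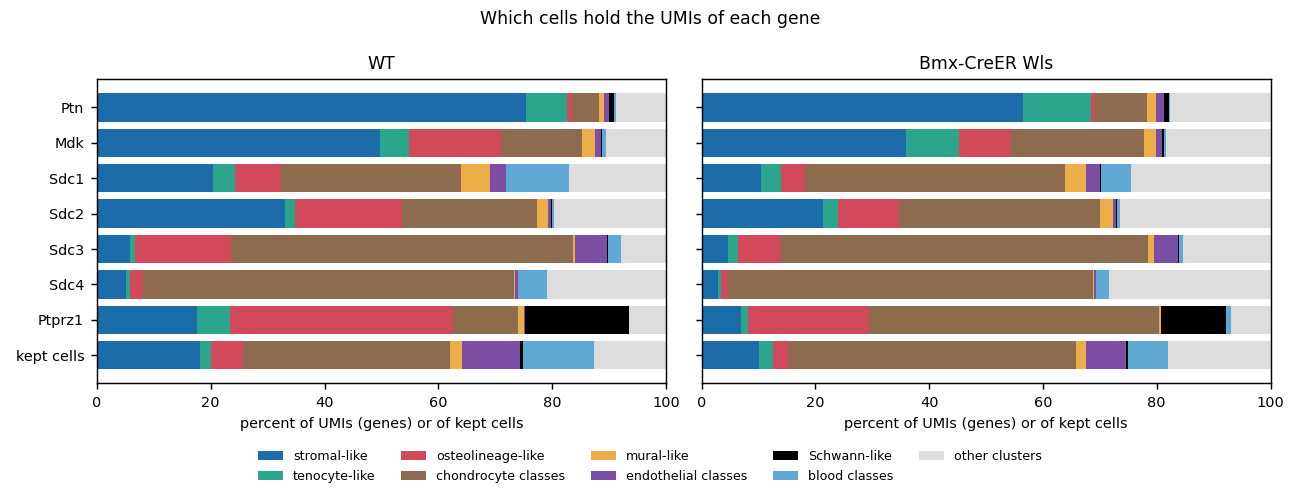
Share (percent) of the UMIs of each of the 7 genes found in each group of cells, for both libraries, beside the share of kept cells in that group. Stromal-like cells held 75.4% of Ptn UMIs in WT from 18.1% of the cells, and the chondrocyte classes held over 60% of Sdc3 and Sdc4 UMIs.

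Ligands and syndecans were also counted in the same cells, thinned to 1000 UMIs. A ligand transcript was found in 75.3% of WT and 80.4% of mutant stromal-like cells, and a ligand together with a syndecan in 29.7% and 34.6%. Cluster 9 had the fewest cells without a syndecan UMI, 22.4% and 23.8%. By contrast, 93.5% of endothelial-like cells in each library had none, and so did 68.6% and 59.7% of mural-like cells and 71.5% and 74.8% of osteoclast-like cells. HSPC-like cells had no syndecan UMI in 98.6% of 143 WT and 100% of 82 mutant cells. Cells with at least 2 kinds of syndecan were 15.5% and 14% of osteolineage-like and 16.9% and 15% of superficial chondrocyte-like cells. At 1000 UMIs a cell without a UMI may still express the gene.

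Between the libraries, 68 pairs of a gene and a class had at least 50 UMIs, and the mutant level was past 1.5-fold higher in 10 of them and past 1.5-fold lower in 5. Over the same 15 classes, 6.03% of the pairs formed by all genes were past 1.5-fold higher and 5.25% lower. Class by class, the shares of genes past 1.5-fold higher were 7.11% in stromal-like, 9.34% in tenocyte-like, 5.74% in chondrocyte-like, 6.39% in hypertrophic chondrocyte-like and 3.73% in endothelial-like cells and 8.85%, 5.66% and 6.28% in clusters 14, 2 and 5. The shares lower were 10.6% in Schwann-like, 5.07% in osteolineage-like, 4.16% in stromal-like, 6.33% in tenocyte-like and 5.79% in superficial chondrocyte-like cells. Mdk gave 5 of the 10 higher pairs, in stromal-like, tenocyte-like, chondrocyte-like and hypertrophic chondrocyte-like cells and in cluster 14 (led by Stc1 and Bpifb1), where the ratio was 1.65 (1.25 to 2.20). Ptn gave 2, in chondrocyte-like (2.14, 1.64 to 2.82) and endothelial-like cells, and Sdc3 2, in stromal-like cells and cluster 2 (1.58, 1.20 to 2.11). The last was Sdc4 in cluster 5, at 2.42-fold, which came mostly from subcluster 5.6. The 5 lower pairs were Ptprz1 in Schwann-like (0.489, 0.300 to 0.781), osteolineage-like and stromal-like cells (0.466, 0.254 to 0.814), Sdc4 in tenocyte-like cells and Ptn in superficial chondrocyte-like cells (0.636, 0.527 to 0.769). Sdc1 and Sdc2 gave none, with 9 and 12 classes that had enough UMIs. The higher Ptn level of chondrocyte-like cells did not hold in both subclusters with at least 50 UMIs, where the mutant level was 0.792 and 0.949 of WT. With equal weight to the subclusters the ratio was 1.62, and it was 1.21 with each library clustered on its own. Other processing choices also brought some ratios inside 1.5-fold, with Sdc4 in tenocyte-like cells at up to 0.694, Ptn in superficial chondrocyte-like cells at up to 0.757, Ptprz1 in Schwann-like cells at up to 0.734 and Mdk in stromal-like cells at 1.46 or above.

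**Figure D5:**
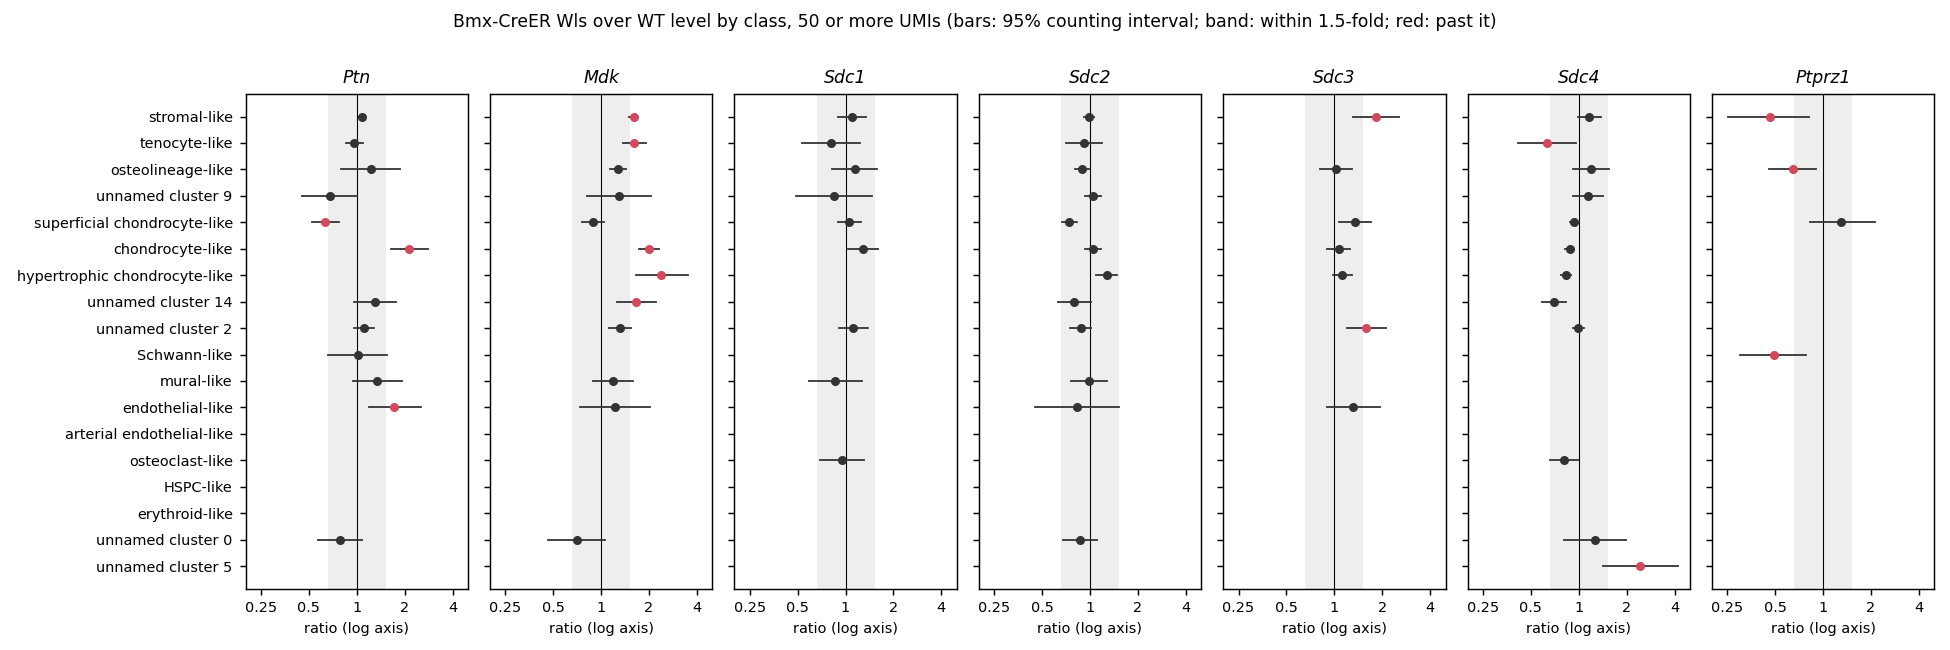
Ratio of the mutant to the WT level (log axis) for each of the 7 genes in each class with at least 50 UMIs over both libraries, with exact conditional 95% intervals of counting error; the grey band spans 1.5-fold either way, and red points lie past it. Mdk had 5 points above the band, Sdc1 and Sdc2 had none outside it.

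The study listed cell types for part of its WT cells, and the levels were read again over those lists as far as they go. Cells listed as OLCs-1, 202 osteolineage cells, had 186 CPM of Ptn (135 UMIs), 645 CPM of Mdk, 1017 CPM of Sdc2 and 77.0 CPM of Ptprz1, and the 102 cells listed as OLCs-2 had 13.2 CPM of Ptn (8 UMIs) and 203, 321 and 106 CPM of the other three. The Ptprz1 UMIs were few, 56 in 30 OLCs-1 cells and 64 in 17 OLCs-2 cells. Cells listed as eBMSC-2 were 149 embryo-enriched stromal cells, of which 94.6% fell in cluster 9. They had 1253 CPM of Sdc2, 69.1 CPM of Mdk and 0 UMIs of Ptprz1. Their Ptn was at 149 CPM (116 to 189, 69 UMIs), against 1224 CPM (1184 to 1265) in the cells listed as eBMSC-1. Ptn was thus not high in all listed stromal types. Cluster 9 itself had 128 CPM of Ptn in WT and 86.5 CPM in mutant. Of the 139 cells listed as neutrophil progenitors, 92.8% were in the osteoclast-like class here, and they had 91.1 CPM of Sdc1 and 219 CPM of Sdc4. In the 173 cells listed as multipotent HSPCs, Ptn was at 0.868 CPM (1 UMI) and Mdk at 0 UMIs, while Sdc4 was at 38.2 CPM (44 UMIs) and Sdc1 at 10.4 CPM (12 UMIs). These included cells placed in the osteoclast-like (18%), granulocyte-monocyte-like (22%) and macrophage-like (6.9%) classes here. The 45 listed mural cells had 178 CPM of Sdc1 (26 UMIs) and 13.7 CPM of Ptn (2 UMIs). Cells listed as mitotic BMSCs, dividing marrow stromal cells, had 84.0 CPM of Ptprz1, which became 26.2 CPM without the 23 of them that were Schwann-like here.

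Around these members, a list of 81 genes in 7 roles covered other receptors, core proteins, enzymes of the sugar chains, sheddases and adaptors. Over all genes, 7.11% were past 1.5-fold higher in mutant stromal-like cells and 4.16% lower. Of the list, 61 genes had enough UMIs there, of which 4 were past 1.5-fold higher in the mutant library and 1 lower. Their median ratio was 0.976 against 1.02 over all genes. The 4 were Agrn, a basement membrane proteoglycan (2.06, 1.43 to 2.96), Csgalnact1, which starts chondroitin sulfate chains (1.74, 1.37 to 2.21), Xylt2, which adds the first sugar of the linker (1.59, 1.07 to 2.37), and Gpc2, a glypican (1.57, 0.987 to 2.51). Sulf1, which removes sulfate groups from heparan sulfate outside the cell, was at 144 CPM in WT and 54.3 CPM in mutant stromal-like cells, a ratio of 0.376 (0.306 to 0.459). In chondrocyte-like cells its relative Sulf2 was at 140 and 294 CPM (2.11, 1.88 to 2.36), and Agrn, Hs3st3a1 and Mmp2 were also past 1.5-fold higher and Gpc1 lower, out of 58 tested. Endothelial-like cells had 2 higher and 1 lower of 43, mural-like cells 1 and 0 of 32, and HSPC-like cells 0 and 2 of 16. Of the listed genes, 8 of 60 were past 1.5-fold lower in superficial chondrocyte-like cells, 5 of 38 in tenocyte-like and 5 of 31 in osteoclast-like cells, where 5.79%, 6.33% and 4.92% of all genes were. In these classes 3, 2 and 2 of the listed genes were higher. Of all genes, 9.34% were higher in tenocyte-like cells, and that share is not given here for the other classes of this comparison. The share over all genes was 5.74% higher and 5.14% lower in chondrocyte-like cells and 3.73% higher and 3.94% lower in endothelial-like cells. In mural-like cells it was 8.01% higher and 6.71% lower and in HSPC-like cells 4.66% and 5.47%.

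Other binding partners of the cytokines peaked in several classes, some of which were also the highest named class of a member of the 7 genes. Ncl, nucleolin, was highest in WT HSPC-like cells at 3753 CPM, and Itgb1, an integrin chain, in mural-like cells at 2348 CPM. The receptor phosphatases Ptprs and Ptprd, related to Ptprz1 by class, were highest in osteolineage-like cells at 242 and 361 CPM. The heparan sulfate core protein Gpc3 was highest in stromal-like cells (2022 CPM), Hspg2 in hypertrophic chondrocyte-like cells (538 CPM) and Col18a1 in arterial endothelial-like cells (2532 CPM). Of the enzymes that can shed syndecans, Mmp9 reached 14020 CPM in osteoclast-like cells, and Sdcbp, which binds the inner ends of syndecans, was also highest there (410 CPM).

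Likeness of pattern was measured by the Pearson correlation of log2(CPM + 10) over the 15 WT clusters, whose levels share 1 library. Nearest to Ptn among 6667 genes were Cacna1g and Cachd1 (both 0.95) and Vcan (0.93). Mdk was nearest to Pcolce (0.94), Vcan (0.93) and Ptprd (0.92), Sdc2 to Ddr2 and Bicc1 (both 0.96) and Pard3 (0.95), and Sdc4 to Pde4dip (0.93), Col27a1 (0.89) and the cartilage regulator Sox9 (0.87). Sdc3 was nearest to Brwd1 (0.89) and Sdc1 to BC003331 (0.82). Within the family, the value was 0.85 for Ptn with Mdk, 0.84 for Mdk with Sdc2, 0.07 for Ptn with Sdc4 and -0.22 for Ptn with Sdc3. Ptprz1 had too few UMIs for this comparison.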

How the data were processed

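Both libraries were made from femora at E18.5. The authors demultiplexed with bcl2fastq 2.19.1.403, extracted barcodes with UMI-tools 1.0.1, aligned to mm10 with STAR 2.7.1a and counted with featureCounts 1.6.4. The deposited counts are whole UMI counts per gene and cell, not normalized, with 5998 WT and 6825 mutant barcodes (22708005 and 24704991 UMIs). Following the study's filter, cells with over 200 and under 5000 genes and under 30% mitochondrial UMIs were kept. The study's integration step was not repeated.

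Counts were normalized per cell, and 2000 variable genes without the 7 genes, the pathway list and cell cycle genes were reduced to 11 principal components and clustered (scanpy 1.11.5, leidenalg 0.10.2, resolution 0.5) into 15 clusters and then subclusters. Classes were named from marker lists, and clusters without a clear list stayed unnamed. They were rebuilt here, so differences from the study's classes may come from the naming. UMIs were summed per class. Intervals were exact Poisson for levels, exact Clopper-Pearson for shares and exact conditional binomial for ratios (SciPy 1.17.1, 95%). The code for ratio intervals was run on simulated Poisson counts without spread between cells or libraries. That run follows the model of the intervals and cannot show their coverage in these data. A class with 0 UMIs was given the limit of 3 counts. Ratios are called past 1.5-fold with at least 50 UMIs over both libraries. Scrublet called 38 doublets in WT (0.662%) and 0 in mutant, so it had not worked; the 5% of cells with the highest scores were left out as an alternative. Subclusters are named by cluster and number or by a leading gene. Text names the 3 genes nearest each member, the highest genes of each role and every member. The members, gene lists and alternatives were chosen with earlier results of these data known. Leaving out subcluster 5.6, the Cygb mural subcluster and the Cd36 endothelial subcluster was chosen after seeing the data. Sequences are from RefSeq on GRCm38.p6. In the GRCm38 annotation Ptn lies on chromosome 6 at 36714929 to 36810220, Mdk on 2 at 91929805 to 91932297, Sdc1 on 12 at 8771323 to 8793715, Sdc2 on 15 at 32920723 to 33034935, Sdc3 on 4 at 130792537 to 130826319, Sdc4 on 2 at 164424247 to 164443887 and Ptprz1 on 6 at 22875502 to 23052916.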

Additional observations from a re-analysis of the deposited data

Results flagged for a closer look

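Barcodes outside the cell filter (262 in WT and 205 in mutant), which enter no comparison above, held UMIs of the members above the limit of 3 counts. In WT they held Ptn at 45.3 CPM (20 UMIs), Mdk at 11.3 CPM (5 UMIs), Sdc2 at 31.7 CPM (14 UMIs) and Sdc4 at 24.9 CPM (11 UMIs), where all kept cells had 262, 167, 252 and 291 CPM. In the mutant library they held Ptn at 18.8 CPM (6 UMIs), Sdc2 at 12.5 CPM (4 UMIs) and Sdc4 at 18.8 CPM (6 UMIs), where all kept cells had 225, 231 and 361 CPM.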

How the results depend on the processing

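No paired analysis was possible because each condition has 1 library. Of 397 levels recomputed under an alternative, 310 stayed within the counting interval and 87 moved past it, and of 475 ratios 426 stayed, 48 moved and 1 reversed; the causes were not tested. The Ptn level of WT stromal-like cells (1275 CPM) became 1227 with at least 1000 UMIs and under 10% mitochondrial UMIs per cell, 1163 at resolution 1.0, 1081 with 30 principal components, 1324 with the members among the variable genes, 1332 without haemoglobin and mitochondrial genes, 1359 as a mean over cells and 1124 over the authors' labels. The mutant to WT ratio of Ptn there became 0.985 with 30 principal components and 1.03 with TMM scaling. Mdk there (537 CPM) became 508 at resolution 1.0, 476 with 30 components, 569 as a mean over cells and 479 over the authors' labels, and its ratio 1.46 with 30 components. Sdc2 in WT osteolineage-like cells (696 CPM) became 652 under the stricter filter, 613 with each library clustered alone and 751 as a mean over cells, and Ptprz1 there 62.4 without its top cell. Clustering alone also gave 669 CPM for Sdc4 in WT hypertrophic chondrocyte-like cells and reversed their Mdk ratio to 0.955. At resolution 1.0 stromal-like cells held 58.9% of WT Ptn UMIs and 40.3% of Mdk UMIs. Thinned to 1000 and 500 UMIs, the shares of WT cells with a UMI were 62.5% and 39.5% for Ptn and 38.8% and 24.4% for Mdk in stromal-like cells (84.5% and 69.6% unthinned), 9.92% and 7.44% for Sdc1 in mural-like cells (32.2%), 47.6% and 29.6% for Sdc2 and 6.94% and 2.16% for Ptprz1 in osteolineage-like cells (83.3% and 15.1%), and 16.4% and 8.31% for Sdc3 and 42.4% and 25.6% for Sdc4 in hypertrophic chondrocyte-like cells (64.9% and 89.8%). Of the ratios past 1.5-fold, Mdk in stromal-like cells ranged over 1.46 to 1.67, Mdk in chondrocyte-like cells over 1.53 to 2.05, Ptn in chondrocyte-like cells over 1.21 to 2.21, Ptn in superficial chondrocyte-like cells over 0.313 to 0.757, Ptn in endothelial-like cells over 1.33 to 2.16, Sdc4 in tenocyte-like cells over 0.525 to 0.694 and Ptprz1 in Schwann-like cells over 0.441 to 0.734.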

Other observations

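Some small groups of cells had levels that are not printed above. The 15 WT and 14 mutant skeletal muscle-like cells had Mdk at 117 CPM (7 UMIs) and 599 CPM (34 UMIs). Cluster 0 cells that stayed unnamed, led by the liver genes Afp, Apoa1 and Alb (33 WT and 29 mutant cells), had Ptn at 653 and 515 CPM and Mdk at 425 and 298 CPM.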
